A study of Mus musculus with 8 samples.

Results

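Transcripts of 10 genes that mark resident macrophages or encode complement C1q were followed in ventricular tissue from C57BL/6 pups of postnatal day 7. The genes were taken by name from the authors' deposited table, which lists 37982 genes: Csf1r, Cd68, Emr1, Lyz2, Mrc1, C1qa, C1qb, C1qc, Cx3cr1 and Cd163. All 10 were found there, and 8 of them passed the authors' own filter for testing, while Emr1 and Cd163 did not. The labels give 8 samples of heart muscle with the atria removed, in 3 genotype groups. The triple mutant group (mkmyn, 3 samples) carried altered Mkl2, Myh7 and Nkx2-5. The double mutant group (mkmy, 3 samples) carried altered Mkl2 and Myh7 with unaltered Nkx2-5, and the wild type group (wt, 2 samples) carried none of these alleles; the names of the altered genes are known from the study. Neither the pups' sex nor which libraries the authors' test used is stated in the labels.

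Resident macrophages of the heart settle there before and around birth, take up dying cells and debris, and are kept alive by signals through the receptor encoded by Csf1r. C1q is the recognition molecule of the classical complement pathway. It is built from A, B and C chains, each with a collagen-like stalk and a globular head, and tissue macrophages are its main source. When C1q binds antibody or an altered surface, it activates the proteases C1r and C1s, which cleave C4 and C2 and so lead to cleavage of C3. In the mouse, Spi1 (listed as Sfpi1) encodes PU.1, a transcription factor required for macrophage development.

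The C1q genes lie side by side on mm9 chromosome 4, and the authors' deposited table places C1qb at 136436044 to 136442102, C1qc at 136445719 to 136448980 and C1qa at 136451832 to 136454718. Together they span 18675 bases, and no other listed locus overlaps any of them. The other loci in mm9 include Cd68 (chromosome 11, 69477715 to 69479655), Emr1 (chromosome 17, 57498109 to 57622952) and Lyz2 (chromosome 10, 116714390 to 116719377). Further loci are Mrc1 (chromosome 2, 14151041 to 14253684), Cx3cr1 (chromosome 9, 119957811 to 119977400) and Cd163 (chromosome 6, 124254669 to 124280545). These intervals are gene-level loci with exons and introns. Mrc1 shares its interval with Mir511, which is listed at 0 in wild type.

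Start-site regions of C1qb, C1qc, Mrc1 and Lyz2 are shown because C1qb, Mrc1 and Lyz2 had the lowest p-values among the 10 genes, and C1qc encodes a partner chain of C1qb. Each runs 5′ to 3′ on the gene's own strand, from 250 bases before the annotated start to 50 after it, in RefSeq's GRCm38.p6, which is not the build of the expression files. The regions are chr4:136886151-136886450 (minus strand), chr4:136892865-136893164 (minus strand), chr2:14229164-14229463 (plus strand) and chr10:117282223-117282522 (minus strand). Capitals mark the letters GAGGAA on either strand, the core of many PU.1 sites.
C1qb: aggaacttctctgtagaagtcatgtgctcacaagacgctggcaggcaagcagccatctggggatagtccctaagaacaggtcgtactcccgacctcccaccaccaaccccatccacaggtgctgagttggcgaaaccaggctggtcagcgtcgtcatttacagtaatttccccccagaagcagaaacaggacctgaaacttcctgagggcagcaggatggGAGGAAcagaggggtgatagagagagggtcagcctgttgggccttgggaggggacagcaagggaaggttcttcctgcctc
C1qc: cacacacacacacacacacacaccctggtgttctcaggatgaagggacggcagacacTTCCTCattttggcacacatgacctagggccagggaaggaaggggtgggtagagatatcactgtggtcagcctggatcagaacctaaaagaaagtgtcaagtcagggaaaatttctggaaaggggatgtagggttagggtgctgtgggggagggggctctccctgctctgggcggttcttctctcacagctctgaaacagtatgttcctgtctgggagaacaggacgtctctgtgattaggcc
Mrc1: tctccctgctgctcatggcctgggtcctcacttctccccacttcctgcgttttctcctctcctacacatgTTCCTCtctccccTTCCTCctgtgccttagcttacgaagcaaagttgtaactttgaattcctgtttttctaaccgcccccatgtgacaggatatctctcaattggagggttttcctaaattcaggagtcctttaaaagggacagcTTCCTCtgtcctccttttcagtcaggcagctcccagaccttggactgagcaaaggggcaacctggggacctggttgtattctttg
Lyz2: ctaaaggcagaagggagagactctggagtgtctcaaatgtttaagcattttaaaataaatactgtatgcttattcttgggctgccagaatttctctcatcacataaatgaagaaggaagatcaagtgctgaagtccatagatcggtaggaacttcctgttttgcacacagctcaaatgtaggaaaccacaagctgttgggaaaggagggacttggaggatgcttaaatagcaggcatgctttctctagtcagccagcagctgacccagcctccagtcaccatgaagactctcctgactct

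RefSeq start-site regions were matched for 7 of the 10 genes. None was found for C1qa and Emr1, and that of Csf1r was not looked for. The letters GAGGAA occurred once in the region of C1qb, with its first base at position -30 from the start, and once in that of C1qc, at -193. The Mrc1 region held 3 matches, at -180, -167 and -35, and the Cd68 region 2. No match was found in the windows of Lyz2, Cx3cr1 and Cd163. Of all 32851 regions in the table, 28.3% held at least 1 match, against 4 of these 7. Motifs of 4 other kinds were searched on both strands, and their matches may overlap one another. Cd68 held TGANTCA, the AP-1 site, at -149 and -24, a motif present in 7.81% of all regions. TGCTGA, part of the Maf element, was found in Lyz2 and C1qb and in 19.5% of all regions. The E box, CANNTG, was found in all 7 and in 72.3% of all regions, while the interferon-regulatory factor element was in none of the 7 and in 3.44% of all regions. A match describes letters and does not show binding.

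Levels are given as FPKM, fragment counts scaled to transcript length and library size, with a single value for each gene in each group. They have no replicate error, and depth is unknown. Because FPKM is per length, levels of different genes can be set side by side. Changes are called at a q-value under 0.05 in the authors' Cuffdiff test. Every comparison shares a group with each of the others, so the 3 are not independent. In these bulk samples fewer macrophages and less RNA per macrophage cannot be told apart.

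The C1q chains were the most abundant transcripts of the panel in wild type ventricle together with Lyz2. In the authors' deposited table C1qa, the A chain, stood at an FPKM of 11.1 in triple mutants, 13.4 in double mutants and 12.1 in wild type. C1qc, the C chain, stood at 9.03 in triple mutants, 8.98 in double mutants and 9.83 in wild type in the authors' deposited table. C1qb, the B chain, had an FPKM in the authors' deposited table of 7.18 in triple mutants, 5.73 in double mutants and 8.34 in wild type. C1qa was thus the highest chain and C1qb the lowest in every group. Of the wild type transcripts whose FPKM reached 1, 58.7% lay below C1qa, 52.5% below C1qc and 47.5% below C1qb, so the chains were mid-range transcripts of the tissue.

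Lyz2 encodes the lysozyme of macrophages and neutrophils. In the authors' deposited table its FPKM was 9.89 in triple mutants, 11.7 in double mutants and 8.53 in wild type. Its near-identical neighbour Lyz1 could share reads, but was listed at 0.123 in triple mutants, 0.0494 in double mutants and 0 in wild type in the authors' deposited table. Mrc1, the mannose receptor CD206 of resident macrophages and of some endothelial cells, stood at 6.25 in triple mutants, 7.01 in double mutants and 5.60 in wild type in the authors' deposited table. For both genes the double mutant was highest and wild type lowest.

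The remaining surface and lysosomal markers were lower. The entry of Csf1r (chromosome 18, 61265226 to 61336704 in mm9) has the same coordinates as those of Hmgxb3 and a U6 RNA, so its level is uncertain. Csf1r, the receptor for colony-stimulating factor 1, had, in the authors' deposited table, an FPKM of 4.25 in triple mutants, 4.12 in double mutants and 3.65 in wild type. Cx3cr1, the fractalkine receptor of monocytes and many tissue macrophages, had an FPKM of 3.19 in triple mutants, 3.55 in double mutants and 2.98 in wild type in the authors' deposited table. Cd68, a lysosomal membrane glycoprotein of phagocytes, had 2.78 in triple mutants, 3.07 in double mutants and 2.64 in wild type in the authors' deposited table. In each of these 3 genes the highest group was at most 1.19 times the lowest.

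Emr1, which encodes an adhesion receptor widely used as a macrophage antigen, and Cd163, the scavenger receptor for haptoglobin and haemoglobin, were barely detected. In the authors' deposited table Emr1 stood at 0.575 in triple mutants, 0.744 in double mutants and 0.372 in wild type. The corresponding FPKM of Cd163 in the authors' deposited table was 0.180 in triple mutants, 0.265 in double mutants and 0.186 in wild type. Neither gene was tested by the authors, so their differences between groups have no error or test. Csf1r, the C1q chains, Mrc1, Lyz2, Cx3cr1 and Cd68 were each above an FPKM of 1 in every group, and the label of the panel rests on these 8 genes.

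**Figure D1:**
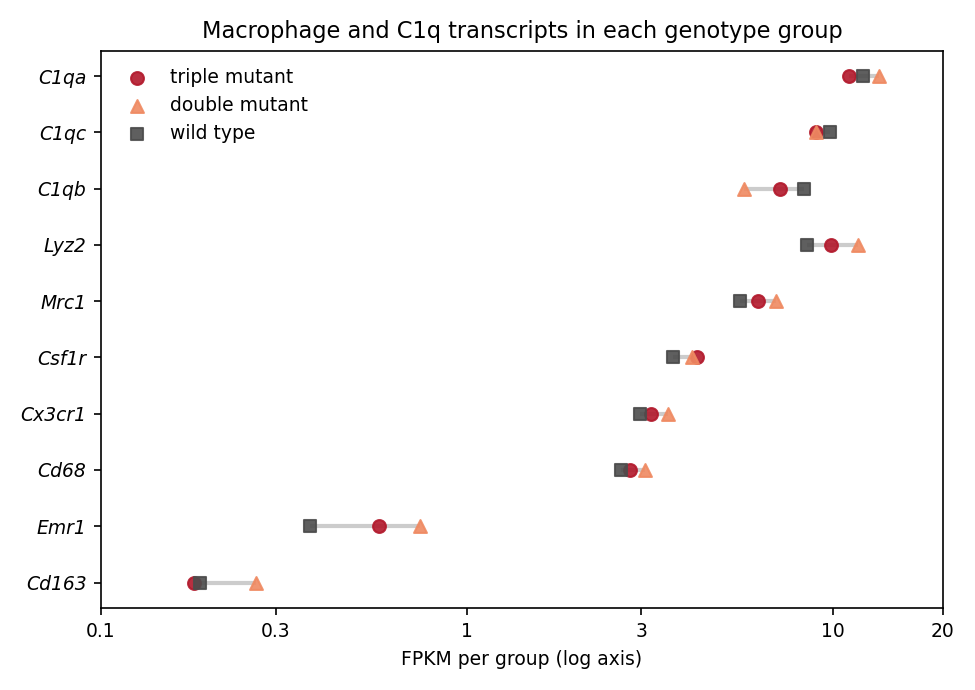
FPKM of the 10 genes on a log axis, with 1 point per genotype group (circles triple mutant, triangles double mutant, squares wild type) and a grey bar from the lowest to the highest group. C1qa, C1qc, C1qb and Lyz2 lie between 5.73 and 13.4, while Emr1 and Cd163 lie under 1 in all groups.

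Over the 10 genes the FPKM summed to 54.4 in triple mutants, 58.6 in double mutants and 54.3 in wild type. The double mutant held the highest value for 7 genes, the triple mutant for 1 (Csf1r) and wild type for 2 (C1qb and C1qc). Wild type held the lowest value for 6 genes, and each mutant group for 2. Where tested, no neighbours in these orders were called different.

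Triple mutant and wild type ventricles were compared to find genes that differ in the diseased state. None of the 8 tested macrophage and C1q genes was called in the authors' Cuffdiff test, against 1.52% of the 12986 genes tested. None had an unadjusted p-value under 0.05, against 12.1% of all, and none passed the authors' own threshold of 0.1 on the q-value, against 2.75%. The C1q chains were each lower and the other 5 tested genes each higher in the triple mutant, with q-values between 0.773 and 0.974. The median log2 fold change of the 8 was 0.09, beside -0.0026 over all genes tested. In the authors' deposited table the log2 fold change was -0.22 for C1qb (7.18 in triple mutants and 8.34 in wild type, q = 0.831), -0.13 for C1qa (q = 0.911) and -0.12 for C1qc (q = 0.926). On the positive side the authors' deposited table gives a log2 fold change of 0.22 for Csf1r (q = 0.903), 0.21 for Lyz2 (q = 0.773), 0.16 for Mrc1 (q = 0.803), 0.10 for Cx3cr1 (q = 0.923) and 0.07 for Cd68 (q = 0.974).

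A p-value above the threshold does not show equal levels, so the width of the intervals matters. The deposited p-values imply approximate standard errors of 0.16 to 0.34 on the log2 scale for these 8 genes, and the deposited statistic, read as a normal score, implies errors about 1.74 times as large. For C1qa the implied 95% interval of the fold change ran from 0.692 to 1.21 and for Mrc1 from 0.901 to 1.38. Among all tested genes with a mean FPKM in the range of these 8, the smallest fold change called in this comparison was 1.40. Taken from the p-values, the intervals of 6 of the 8 genes, the 3 C1q chains among them, include a change of that size in at least 1 direction. Those of Mrc1 and Cx3cr1 do not. Taken from the statistic, the intervals of Mrc1 and Cx3cr1 reach log2 fold changes of 0.74 and 0.68 and include it too.

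Triple and double mutants were compared to see what changes when the Nkx2-5 allele is added. None of the 8 tested genes was called in the authors' Cuffdiff test, against 1.25% of the 12786 genes tested. None had an unadjusted p-value under 0.05, against 8.45% of all, and none a q-value under 0.1, against 1.98%. The median log2 fold change was -0.15, beside -0.0011 over all genes tested. C1qb was the gene with the highest value, at a log2 fold change of 0.32 in the authors' deposited table (7.18 in triple and 5.73 in double mutants, q = 0.689). C1qa had the lowest, at -0.27 in the authors' deposited table (11.1 in triple and 13.4 in double mutants, q = 0.693). Lyz2 was at -0.25 (q = 0.689), Mrc1 at -0.17 (q = 0.765), Cx3cr1 at -0.15 (q = 0.829) and Cd68 at -0.14 (q = 0.955) on the same scale in the authors' deposited table. C1qc (0.0085, q = 0.995) and Csf1r (0.04, q = 0.985) differed least in the authors' deposited table.

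Double mutants and wild type were compared as well, a pair that the design text leaves unnamed. None of the 8 tested genes was called in the authors' Cuffdiff test, against 2.65% of the 13034 genes tested, and none had a q-value under 0.1, against 4.41%. At an unadjusted p-value under 0.05, Lyz2 and Mrc1 were higher and C1qb was lower, which is 3 of 8 genes beside 16.3% of all genes tested (9.46% higher and 6.86% lower). In the authors' deposited table the log2 fold change of Lyz2 was 0.46 (11.7 in double mutants and 8.53 in wild type, p = 0.0184, q = 0.256). That of Mrc1 was 0.33 (7.01 in double mutants and 5.60 in wild type, p = 0.0394, q = 0.362), and that of C1qb was -0.54 (5.73 in double mutants and 8.34 in wild type, p = 0.0234, q = 0.288), in the authors' deposited table.

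The implied 95% interval of the log2 fold change was 0.08 to 0.85 for Lyz2, 0.02 to 0.64 for Mrc1 and -1.01 to -0.07 for C1qb when taken from the p-value. Taken from the statistic, each of the 3 intervals included 0, at -0.20 to 1.12 for Lyz2, -0.26 to 0.91 for Mrc1 and -1.35 to 0.27 for C1qb. The other log2 fold changes in the authors' deposited table were 0.25 for Cx3cr1 (q = 0.596), 0.22 for Cd68 (q = 0.911), 0.17 for Csf1r (q = 0.929), 0.14 for C1qa (q = 0.896) and -0.13 for C1qc (q = 0.919). The median over the 8 was 0.19, beside -0.0030 over all genes tested.

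**Figure D2:**
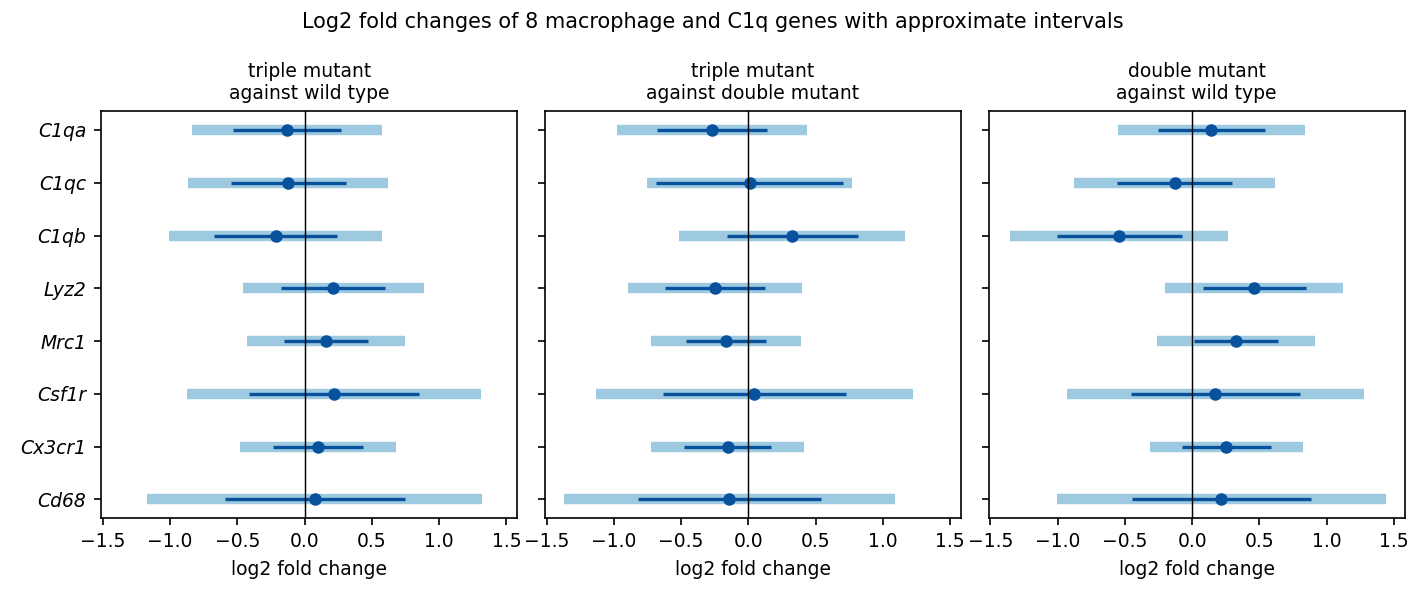
Log2 fold change (points) of the 8 tested genes in each comparison, with approximate 95% intervals implied by the deposited p-value (thin dark lines) and by the deposited statistic (wide light bars); 0 is marked by a vertical line. Only the thin intervals of Lyz2, Mrc1 and C1qb in double mutant against wild type leave out 0.

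The ratios between the C1q chains differed across the groups. C1qa to C1qb stood at 1.54 in triple mutants, 2.33 in double mutants and 1.46 in wild type. C1qa to C1qc was 1.23 in triple mutants, 1.49 in double mutants and 1.23 in wild type. As shares of the summed FPKM of the chains, C1qb made up 26.3% in triple mutants, 20.4% in double mutants and 27.5% in wild type, while C1qc made up 33.1%, 32.0% and 32.4% of it in the same groups. The sum itself was 27.3 in triple mutants, 28.1 in double mutants and 30.3 in wild type. The triple mutant and wild type were thus close in composition and the double mutant stood apart, with more C1qa and less C1qb. A test of these ratios needs values per sample, so whether the shift exceeds the spread between pups was not tested. The sample descriptions begin with either of 2 numbers, both found in every group, and the part of what they mark was not tested either.

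**Figure D3:**
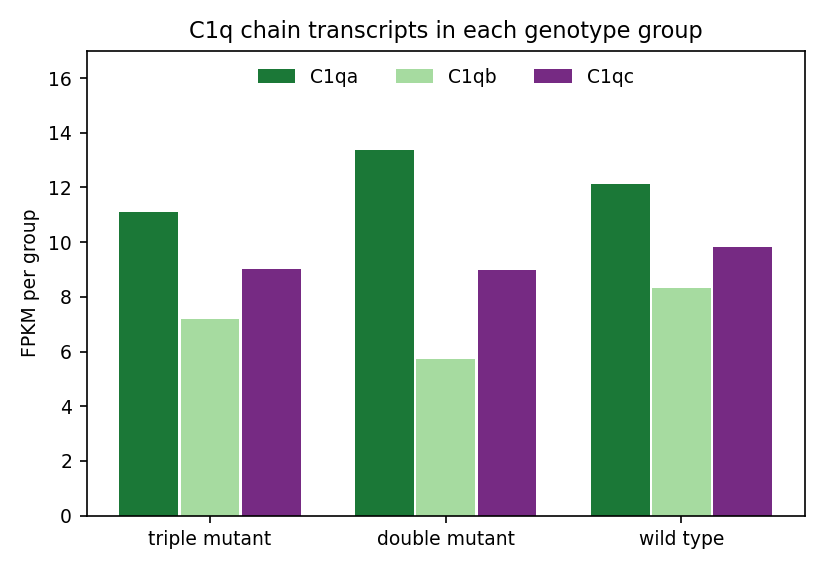
FPKM of C1qa, C1qb and C1qc (bars, starting at 0) in triple mutant, double mutant and wild type ventricles, with 1 value per group and no error. C1qb is the lowest chain in each group and is lowest in the double mutant, at 5.73.

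The mean of the 3 chains had a log2 fold change of -0.15 for the triple mutant and -0.11 for the double mutant against wild type. By distance to this pair of values, the most alike of 8531 genes with an FPKM of at least 5 in every group were 9930021J03Rik, Snx19, Trmt1, Ninj1 and Hgs, all within 0.0087 log2 units. Likeness over 3 group values is weak, since 768 genes lay within 0.1 of the same point. The chains themselves differed in double mutant against wild type, at 0.14 for C1qa, -0.54 for C1qb and -0.13 for C1qc. Likeness to their mean is therefore not likeness to C1qa or C1qb.

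Ligands of the receptors in the panel were measured next. Csf1, the main ligand of the Csf1r protein, stood at 11.4 in triple mutants, 14.1 in double mutants and 13.03 in wild type in the authors' deposited table, and Il34, its second ligand, at 2.26, 1.02 and 2.80 in those groups. Neither was called in any comparison, and the lowest q-value among them in the authors' deposited table was 0.494, for Il34 in double mutant against wild type. Cx3cl1, the ligand of the Cx3cr1 protein, had, in the authors' deposited table, an FPKM of 1.82 in triple mutants, 1.72 in double mutants and 2.08 in wild type, with no call. Of 15 genes of CSF1 receptor ligands and signalling, 10 were tested in each comparison. Each mutant against wild type held 1 call, beside 1.52% of all genes tested for the triple and 2.65% for the double mutant. Csf2ra, a receptor subunit for the related cytokine GM-CSF, rose 1.53-fold in triple mutant against wild type (23.7 and 15.5, q = 0.0066) in the authors' deposited table. Grb2, an adaptor that couples many receptors to Ras, rose in double mutant against wild type (67.9 and 34.0, q = 0.0356) in the authors' deposited table, with a locus that overlaps Gm11702. No other gene of this list was called.

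Components of complement that act after C1q were low. Of 15 genes of the classical pathway downstream of C1q, 2 passed the authors' filter and none was called in any comparison. Over all genes tested, 1.25% to 2.65% were called in the 3 comparisons, so no call among 2 genes says little. C1s, one of the proteases that C1q activates, stood at 3.82 in triple mutants, 3.65 in double mutants and 5.55 in wild type, and C3 at 3.61, 2.84 and 3.55 in the same groups of the authors' deposited table. Of 8 tested complement regulators, 1 was called in double mutant against wild type, beside 2.65% of all genes tested. It was Cd59a, which blocks assembly of the membrane attack complex and rose 1.65-fold (36.9 and 22.4, q = 0.0066) in the authors' deposited table. Serping1, the C1 inhibitor, had, in the authors' deposited table, an FPKM of 15.0 in triple mutants, 21.1 in double mutants and 14.9 in wild type, with no call.

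Of the complement and C1q-binding receptors, 2 of 5 tested were called in triple and 2 of 6 in double mutant against wild type. The shares over all genes tested were 1.52% and 2.65%. Among these receptors C3ar1, the receptor for the C3a fragment, rose 1.67-fold in double mutant against wild type (2.91 and 1.74, q = 0.0479) in the authors' deposited table. In triple mutant against wild type the value of C3ar1 was 1.64-fold with q = 0.0641 in the authors' deposited table (2.86 and 1.74), and in triple against double mutant its q-value was 0.985. C1qbp, a mainly mitochondrial protein that can bind C1q heads, rose in both mutants against wild type in the authors' deposited table, 1.56-fold in the triple (q = 0.0114) and 1.45-fold in the double (q = 0.0297). Calr, an endoplasmic reticulum chaperone that can also act as a C1q receptor, rose 1.43-fold in triple mutant against wild type (q = 0.0458) in the authors' deposited table, a call that was lost when q-values were recomputed within the comparison (q = 0.0541). None of the 11 tested genes for C1q-domain proteins outside the complex was called in any comparison, beside 1.25% to 2.65% of all genes tested.

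Other genes of macrophage identity were taken next. Of 27 such genes, 15 were tested in each mutant against wild type and 12 in triple against double mutant. In triple mutant against wild type 8 had a positive and 7 a negative log2 fold change. In double mutant against wild type 11 were positive and 4 negative, and in triple against double mutant 4 were positive and 8 negative. Of all genes tested, 49.7%, 49.6% and 49.8% were positive in these comparisons. Apoe, a lipid carrier abundant in macrophages and also made by other cells, fell in triple against double mutant by 0.57 on the log2 scale (55.3 and 82.2, q = 0.0214) in the authors' deposited table. It was the 1 call among the 12 tested there, beside 1.25% of all genes tested. Sfpi1, which encodes PU.1, stood at 1.09 in triple mutants, 1.46 in double mutants and 1.62 in wild type in the authors' deposited table, with no call. Of 21 genes of tissue-resident macrophages, 10 were tested in each comparison of the triple mutant and 11 in double mutant against wild type. None was called, beside 1.25% to 2.65% of all genes tested in the 3 comparisons. In double mutant against wild type 7 of this list had a positive and 4 a negative log2 fold change. Lyve1, a hyaluronan receptor, stood at 3.88 in triple mutants, 4.17 in double mutants and 2.78 in wild type in the authors' deposited table (q = 0.105 for double mutant against wild type). Stab1, a scavenger receptor, stood at 9.79 in triple mutants, 10.6 in double mutants and 14.6 in wild type in the authors' deposited table (q = 0.446 for the same pair). The lowest q-value of the list in the authors' deposited table was 0.0511, for F13a1, a coagulation factor subunit, in triple against double mutant (3.63 and 5.32).

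Lysosomal and haem-handling genes were also followed. In double mutant against wild type 1 of 21 tested lysosomal genes and 1 of 9 tested haem-handling genes were called, beside 2.65% of all genes. In triple against double mutant 1 of 9 tested haem-handling genes was called, beside 1.25% of all genes. Among the lysosomal enzymes and membrane proteins, Grn, which encodes progranulin, rose 1.74-fold in double mutant against wild type (91.9 and 52.7, q = 0.0066) in the authors' deposited table, with a locus that overlaps Fam171a2. No other gene of that list was called in any comparison. Fth1, the ferritin heavy chain that stores iron, rose 1.57-fold in double mutant against wild type (354 and 226, q = 0.0066) and fell in triple against double mutant by 0.48 on the log2 scale (254 and 354, q = 0.0321) in the authors' deposited table. These genes are expressed by many cell types besides macrophages.

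Markers of other blood cells held several calls, in lists with few tested genes. Over all genes tested, 1.52% were called in triple mutant against wild type, 1.25% in triple against double mutant and 2.65% in double mutant against wild type. The summed FPKM of 16 neutrophil markers was 28.3 in triple mutants, 13.4 in double mutants and 9.58 in wild type, and S100a9, a calprotectin subunit, rose 3.40-fold in triple mutant against wild type (q = 0.0066) in the authors' deposited table. It also rose in triple against double mutant (16.7 and 8.57, q = 0.0244) in the authors' deposited table. S100a9 alone held 16.7 of the summed 28.3 in triple mutants. It was the only call among the 3 markers tested in each comparison of the triple mutant. S100a8, the other calprotectin subunit, had no call, at 5.42 in triple mutants, 2.48 in double mutants and 3.62 in wild type in the authors' deposited table. Neutrophils also express Lyz2, whose highest level was in the double and not in the triple mutant, and their part in the Lyz2 values was not tested. The summed FPKM of 10 mast cell markers was 37.5 in triple mutants, 36.6 in double mutants and 24.0 in wild type, and Cpa3 rose 4.63-fold in the triple and 3.75-fold in the double mutant against wild type (q = 0.0066 each) in the authors' deposited table. The mast cell protease Cma1 stood at 8.39 in triple mutants, 8.55 in double mutants and 3.18 in wild type in the authors' deposited table, and rose in both mutants against wild type (q = 0.0066 each). Mcpt4, another mast cell protease, rose in triple mutant against wild type (3.90 and 0.945, q = 0.0150) in the authors' deposited table. Of 6 tested genes of this list, 3 were called in the triple and 2 in the double mutant against wild type. Kit and Gata2 had lower values in both mutants than in wild type, with no call. In the authors' deposited table Kit stood at 7.34 in triple mutants, 7.23 in double mutants and 8.66 in wild type, and Gata2 at 6.79, 7.66 and 7.98. Of 21 genes of monocytes and recruited macrophages, 8 were tested in each comparison of the triple mutant and 7 in double mutant against wild type. Among them Spp1, which encodes osteopontin, was called higher in triple mutants against both other groups (3.77 in triple mutants, 0.295 in double mutants and 0.501 in wild type in the authors' deposited table, both q-values 0.0066). The deposited statistic for Spp1 was only 1.56 against wild type and 1.25 against double mutants, so these calls rest on the deposited p-values. In the same list Thbs1, which encodes the matrix glycoprotein thrombospondin, fell in double mutant against wild type by 0.59 on the log2 scale (22.9 and 34.6, q = 0.0066) in the authors' deposited table. Ly6c1, a surface antigen also made by endothelial cells, fell in triple against double mutant by 0.63 on that scale (40.4 and 62.5, q = 0.0114) in the authors' deposited table. Which cells account for the values of Thbs1 and Ly6c1 was not tested, so neither fall can be assigned to monocytes. Ccr2, the chemokine receptor of recruited monocytes, was under the authors' filter, at 0.378 in triple mutants, 0.310 in double mutants and 0.474 in wild type in the authors' deposited table.

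The pan-leukocyte genes had no call in any comparison. Of all genes tested, 1.52% were called in triple mutant against wild type, 1.25% in triple against double mutant and 2.65% in double mutant against wild type. With 8 to 10 genes tested, no call is near these shares. Of 10 tested in double mutant against wild type, 9 had a positive log2 fold change, beside 49.6% of all genes tested. The median was 0.45 in this comparison, beside -0.0030 over all genes tested. In triple against double mutant 8 of 10 were negative with a median of -0.19, and in triple mutant against wild type 6 of 8 were positive with a median of 0.20. Of all genes tested, 49.8% were positive in the first of these comparisons and 49.7% in the second. Coro1a, an actin regulator of leukocytes, stood at 9.76 in triple mutants, 7.79 in double mutants and 5.72 in wild type in the authors' deposited table, and Laptm5, a leukocyte lysosomal protein, at 11.1, 10.5 and 7.66 in the same groups. Both had a positive log2 fold change in triple against double mutant, unlike the other 8 tested. Arhgdib, the most abundant gene of the list, stood at 20.5, 23.4 and 19.6 in those groups of the authors' deposited table. Lymphoid markers were scarce, with a summed FPKM of 3.95 in triple mutants, 3.71 in double mutants and 5.77 in wild type over 17 genes.

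**Figure D4:**
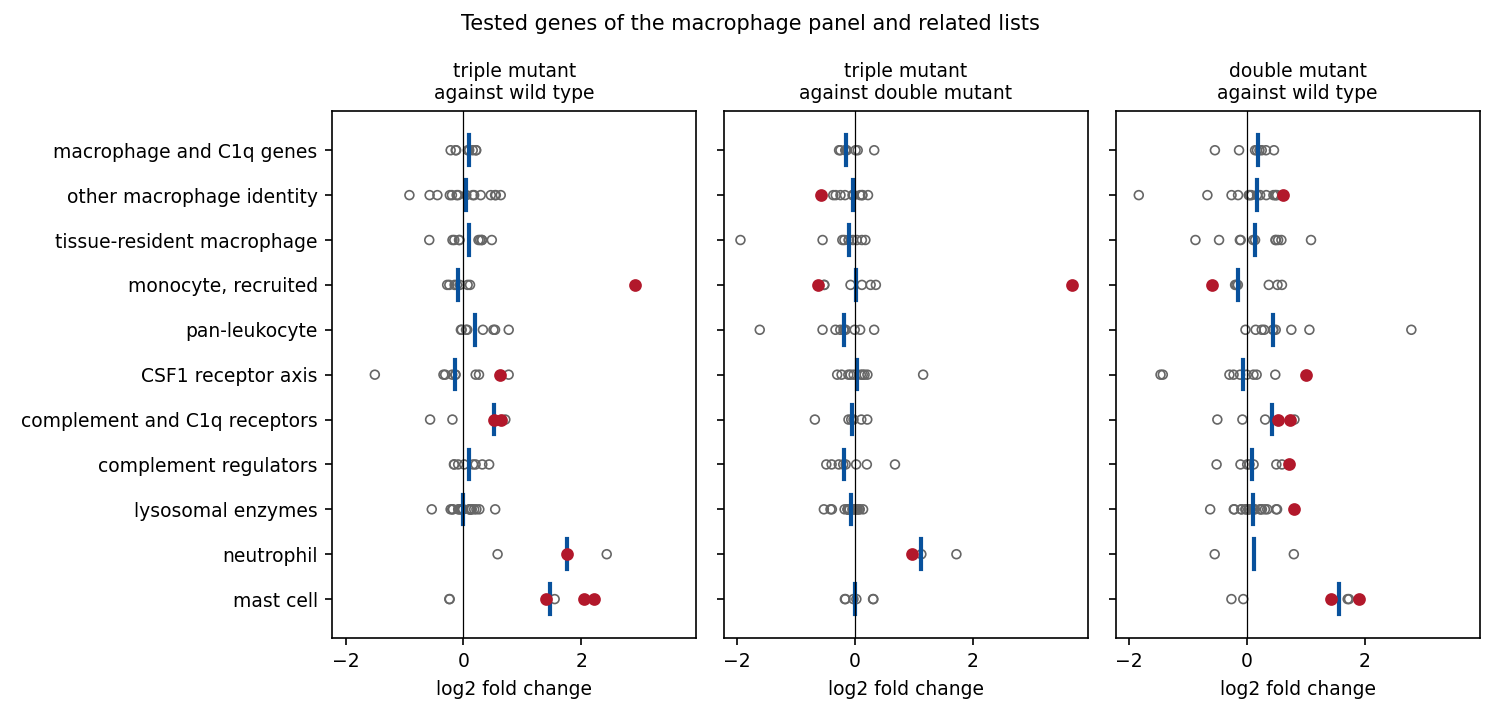
Log2 fold changes of the tested genes in the macrophage and C1q panel and in 10 related lists, one column per comparison; filled red circles passed a q-value under 0.05, open circles did not, and blue bars mark list medians. The panel has no filled circle in any comparison. The mast cell list, with 6 tested genes, has 3 in triple mutant against wild type and 2 in double mutant against wild type. Of all genes tested, 1.52% and 2.65% passed in these 2 comparisons.

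The tissue label was checked on 6 cardiomyocyte markers, all of which are listed at 0 because their fragments were too many for Cuffdiff to estimate, so they were not measured. Nkx2-5, a cardiac transcription factor and one of the altered genes, had, in the authors' deposited table, an FPKM of 55.2 in triple mutants, 53.1 in double mutants and 43.6 in wild type, with no call, and Myh7 is listed at 0 for the same reason as the markers. These levels do not check the genotypes, since an allele can be altered at the same level of transcript. Of the other cell types in ventricle, 6 blood endothelial markers summed to 437 in triple mutants, 498 in double mutants and 500 in wild type. In the authors' deposited table the Y-linked gene Ddx3y stood at 10.02 in triple mutants, 14.0 in double mutants and 4.82 in wild type, and Xist, the X inactivation RNA, whose locus is shared with Tsix, at 88.2 in triple and 1.21 in double mutants (q = 0.0066), with no estimate in wild type. The sex of the pups and the genotype therefore cannot be told apart for any difference given here.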

How the data were processed

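Stranded total RNA libraries were sequenced, per the labels' protocols. The tools named are Cuffdiff 2.2.1, Cufflinks 2.2.1, STAR 2.5.2 and CASAVA 1.8, with build mm9, per the submitters' processing notes. Settings and gene models are not given there. The authors deposited FPKM per gene and group with a log2 fold change, a p-value, a q-value and Cuffdiff's statistic, a score, for each comparison. No values per sample were used, so depth and replicate error are unknown and the tests are the authors'. The labels do not say that the samples of a group came from separate animals, so the p-values may measure technical spread.

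The log2 fold changes matched the log2 ratio of FPKM to within 4.72e-05, and the q-values matched a Benjamini-Hochberg adjustment across the 3 comparisons together to within 5.26e-07. The smallest p-value of the authors' Cuffdiff test was 5e-05, with a q-value of 0.0066. Genes at q = 0.0066 all sit at this floor and cannot be ranked by it. The normal score of a deposited p-value is 1.76 times the statistic (median of 34694 tests), so standard errors were taken from both. Calls in the related lists use the deposited p-values, and p-values from the statistic are not given for them. Starts were raised by 1, on the reading that they count from 0.

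The 10 genes, 23 related lists and all tests were chosen with earlier results of these data known. RefSeq synonyms (GRCm38.p6) matched older symbols, leaving 1 of 297 unmatched. The rule for named genes takes the 10 genes, called list members, the 3 most abundant genes per list, Csf1, Il34, Cx3cl1 and the 5 genes most like the C1q mean. It gives 72 list genes. Those called are named, except 1 that is not reported here, and of the others those nearest to the panel. Sfpi1, Lyz1, Ccr2, Nkx2-5, Myh7, Ddx3y and Xist were chosen after their values were seen. Alternatives were other thresholds, FPKM minimums (1 and 5), pseudocounts (1 and 0.1) and scalings. The calculations were tested on simulated data, with Python 3.11.15, pandas 2.3.3, SciPy 1.17.1 and matplotlib 3.10.9.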

Additional observations from a re-analysis of the deposited data

How the results depend on the processing

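No paired analysis was possible because the deposited values are 1 per group, and leaving out a replicate was not run, with no values per sample. The count of called genes was 0 in each direction and comparison with the authors' q-value threshold of 0.1, with q-values recomputed within a comparison, with FPKM minimums of 1 or 5, and with p-values from the statistic, the last chosen after seeing the data. The FPKM minimums only take genes away and could not add a call. For these genes the p-values from the statistic were larger than the deposited ones. At an unadjusted p-value under 0.05, also chosen after seeing the data, 2 genes were higher and 1 was lower in double mutant against wild type, and none in the other comparisons.

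The median log2 fold change kept its sign under pseudocounts of 1 and 0.1, which cannot turn the sign of any gene. It also kept its sign under centring on all tested genes, rescaling to equal sums, inclusion of all 10 genes and removal of the C1q chains. Restricted to the C1q chains it turned to -0.13 in triple mutant against wild type, 0.0085 in triple against double mutant and -0.13 in double mutant against wild type. Under the FPKM minimum of 5 it turned to -0.12 in triple mutant against wild type, since that minimum keeps the 3 chains among 5 genes. For single genes, 90 values under a pseudocount, centring or rescaling kept their sign. The pseudocount could not change a sign, and centring took off medians between -0.0030 and -0.0011. The 24 tested values kept their side of the threshold with q-values recomputed within the comparison. Rescaling shifted the log2 fold changes by at most 0.04. Its sums leave out genes without an estimate, all 6 cardiomyocyte markers among them, so rescaling cannot show an effect of library composition. Depth is unknown, so how far it limits Emr1 and Cd163 cannot be given.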
